A study of Mus musculus with 6 samples.

Results

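Endothelin signalling was described here through 6 genes: the ligands Edn1 and Edn3, the receptors Ednra and Ednrb, the converting enzyme Ece1, and the transcription factor Mef2c. They were taken by symbol from the 49492 gene rows of a count table, and all 6 were found. RNA had been sequenced from the soft palate, the muscular posterior part of the palate, of mouse embryos at E14.5. There were 3 libraries from Dlx5-/- embryos, which lack the homeobox gene Dlx5 (the labels name no conditional allele or Cre driver), and 3 libraries from wild-type control embryos of the same stage. The labels give neither strain nor sex, and do not say whether a library came from 1 embryo or from a pool. Replicates are therefore separate samples whose spread may in part be technical. The study asks how Dlx5 governs the meeting of neural crest cells and myoblasts as the mouth and throat take shape.

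Endothelins are small secreted peptides that are made as long precursors. Furin-like proteases and then Ece1 trim the precursor to the active peptide, which binds the G protein-coupled receptors Ednra and Ednrb. In the early pharyngeal arches of the mouse, Edn1 from epithelium and mesoderm acts through Ednra on cranial neural crest cells and gives them the identity of the lower jaw, and Dlx5, Dlx6 and Hand2 need this signal. Mef2c acts in the same neural crest cells and helps to switch on Dlx5 and Dlx6, and it is also a regulator of muscle and vessel development. Edn3 and Ednrb form another branch, which melanocytes and the neurons of the gut require. Edn1, Ednra and Mef2c thus stand upstream of Dlx5 in the arches, and the comparison shows the RNA of all 6 genes once Dlx5 is gone, at a later stage and in a mixed tissue.

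Edn1 and Edn3 code for closely related peptides, and the stretches that code for the active peptides are shown because they are the part in which both ligands are most easily taken for each other. Each stretch holds 21 codons and was found by the spacing of the cysteines of endothelins. Bases that differ between both genes are in capitals.
Edn1: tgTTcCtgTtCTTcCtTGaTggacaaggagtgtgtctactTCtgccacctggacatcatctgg
Edn3: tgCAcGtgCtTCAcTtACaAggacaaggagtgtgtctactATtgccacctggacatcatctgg
They are given 5′ to 3′ on the coding strand, from GENCODE M21 transcripts on GRCm38, the assembly also called mm10. The Edn1 stretch is exonic, spans codons 53 to 73 of 202, and belongs to the gene at chr13:42301476-42307990 on the plus strand. The Edn3 stretch spans codons 97 to 117 of 214, in the gene at chr2:174760619-174784042 on the plus strand. Of the 63 bases, 50 were shared and 13 differed, and 15 of the 21 amino acids were shared. Over the whole coding sequences, 68.7% of aligned bases were identical, and the longest identical run was 21 bases. The coding sequences of the receptors Ednra and Ednrb were 67.8% identical, with no identical run longer than 12 bases. For Ece1 and its relative Ece2 identity was 68.4%, with a longest run of 17 bases.

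The libraries held 6891798 to 11922442 estimated counts. Dlx5 had 7, 15 and 17 estimated counts in Dlx5-/- libraries, against 242, 193 and 113 in control libraries, so the labels held in all 6. Dlx5-/- replicate 3 stood apart, with a mean correlation of 0.959 with the other libraries, against 0.970 to 0.976 for the rest. It also held markers of mature brain, whose 8 listed genes summed to 204 CPM there and to 10.3 to 22.5 CPM in the other 5 libraries. CPM stands for counts per 1000000, here scaled with TMM factors. For the 6 endothelin genes and Hand2, an estimate that changed sign without this library is given with and without it.

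Of the 6 endothelin genes, Ece1 had a lower estimate in Dlx5-/- than in control soft palates (log2 fold change -0.48) and Ednra a higher one (0.30), while the other 4 lay between 0.06 and 0.16. All 6 passed the filter of a mean of 1 CPM over the libraries. In edgeR's quasi-likelihood test with adjustment over all 16218 genes, 0 of the 6 passed an adjusted p of 0.05, where 0.00617% of all genes did, which is Dlx5 alone. At an unadjusted p under 0.05, 2 of the 6 were found, against 12.8% of all genes: Ece1 was lower, as were 7.23% of genes on that basis, and Ednra was higher, as were 5.61%. The median on the log2 scale was 0.11 for the 6 genes and 0.01 for all genes tested, and the median size regardless of sign was 0.15 and 0.16. In bulk tissue, fewer cells of a type and less RNA per cell cannot be told apart.

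**Figure D1:**
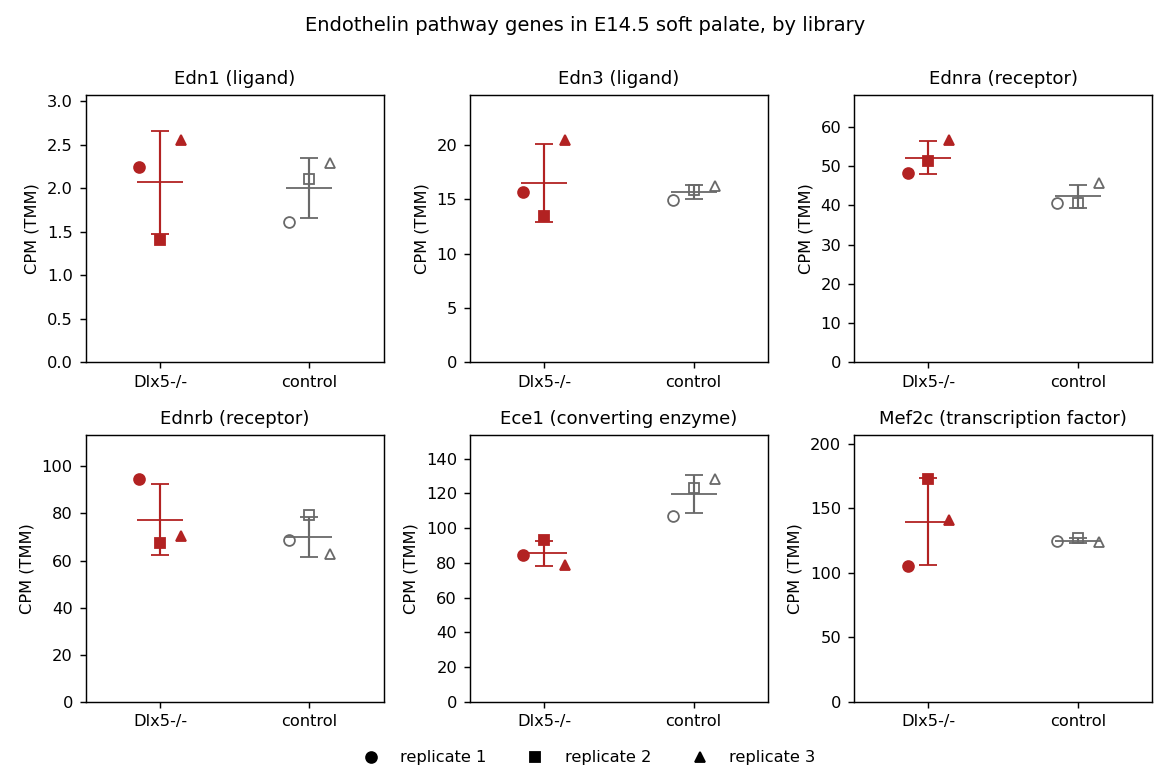
TMM-normalized CPM (vertical axes, each from 0) of the 6 endothelin genes in each library, with Dlx5-/- libraries in filled red and control libraries in open grey symbols. Bars are mean ± SD of 3 libraries. The groups do not overlap for Ece1, at most 93.1 CPM in Dlx5-/- and at least 107 CPM in control, and for Ednra, at least 48.3 CPM in Dlx5-/- and at most 45.7 CPM in control, while the other 4 genes overlap.

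Edn1, the ligand of the early arches, was scarce in both groups. It had 19, 13 and 34 estimated counts in Dlx5-/- libraries, against 15, 26 and 16 in control libraries. That is 2.07 ± 0.594 CPM in Dlx5-/- and 2.00 ± 0.350 CPM in control soft palates (SD, n = 3 each). The groups overlapped fully, with the lowest and the highest value both in Dlx5-/- libraries. On the log2 scale Dlx5-/- differed from control by 0.06 (SE 0.38; edgeR adjusted p = 0.968). The 95% confidence interval of -0.80 to 0.92 leaves room for a level in Dlx5-/- from 0.573 to 1.89 of that in control. A single count of 13 has an exact Poisson 95% interval of 6.92 to 22.2, which covers counting error only. The gene Gm47118 lies on the opposite strand of Edn1 and was not found by that symbol among the gene rows. Since the use of strand is not stated, reads from it may or may not have been counted for Edn1.

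Edn3, the ligand of the melanocyte and gut neuron branch, was the more abundant ligand per kilobase of exon. It measured 15.7, 13.4 and 20.5 CPM in Dlx5-/- libraries, against 14.96, 15.9 and 16.2 CPM in control libraries. The control libraries lay close together, and the Dlx5-/- libraries lay on both sides of them, with replicate 3 highest. The log2 difference of Dlx5-/- from control was 0.08 (SE 0.17; 95% confidence interval -0.31 to 0.48; edgeR adjusted p = 0.892). Without Dlx5-/- replicate 3 the estimates of both ligands turned, to -0.11 for Edn3 and -0.14 for Edn1.

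The balance of the ligands within a library does not depend on scaling. The log2 ratio of Edn1 to Edn3 counts, with 1 added to each, was -2.74, -3.16 and -2.96 in Dlx5-/- libraries, against -3.13, -2.87 and -2.75 in control libraries. The means were -2.96 ± 0.207 in Dlx5-/- and -2.91 ± 0.196 in control libraries (SD, n = 3 each), a difference of -0.04 (p = 0.8, exact two-sided permutation test; adjusted over 2 ratios, 0.8). With 3 libraries against 3, this test cannot give a p below 0.1.

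Ednra, the receptor through which Edn1 acts on cranial neural crest cells, had a higher estimate in Dlx5-/- soft palates. It measured 48.3, 51.3 and 56.7 CPM in Dlx5-/- libraries, against 40.7, 40.6 and 45.7 CPM in control libraries. Every Dlx5-/- library lay above every control library, as it did for 9.49% of all genes. The fold change was 1.23 (95% confidence interval 1.06 to 1.43; log2 0.30, SE 0.09), short of the threshold in edgeR (adjusted p = 0.219). DESeq2 gave an adjusted p of 0.312 and limma-trend of 0.226. The log2 estimate stayed above 0 with any 1 library left out, between 0.23 and 0.35, and was lowest without Dlx5-/- replicate 3. Ednra lies at chr8:77663031-77724464 on the minus strand (GRCm38). A non-coding gene on the opposite strand, 4933431K23Rik, overlaps it with 21 counts in all Dlx5-/- and 25 in all control libraries, few beside the 1635 and 1199 of Ednra.

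Markers of palate mesenchyme, in which Ednra is expressed, did not move in 1 direction. Their 8 genes summed to 429 to 492 CPM in Dlx5-/- and 369 to 447 CPM in control libraries, and their median log2 fold change was -0.27. Prrx1, a homeobox gene of limb and face mesenchyme, had a log2 fold change of 0.45 (adjusted p = 0.149, edgeR) and Pax9, a regulator of palate and teeth, of -0.67 (adjusted p = 0.114, edgeR), and DESeq2 called both (adjusted p = 0.0112 and 0.0109). Smooth muscle and pericyte genes, whose cells also carry Ednra, summed to 376 to 537 CPM in Dlx5-/- and 373 to 425 CPM in control libraries, and the median of their 10 log2 fold changes was -0.08. Estimates were higher for 4 and lower for 6. Acta2 had a log2 fold change of 0.76 (adjusted p = 0.180, edgeR), and DESeq2 called it (adjusted p = 0.00708). Rgs5 was at -0.60 (adjusted p = 0.296, edgeR) and was not called by DESeq2 (adjusted p = 0.169). The part of either cell type in the Ednra estimate was not tested.

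Ednrb, the receptor of Edn3, was the more abundant receptor in every library per kilobase of exon. It measured 94.6, 67.3 and 70.3 CPM in Dlx5-/- libraries, against 68.6, 79.4 and 62.6 CPM in control libraries. Dlx5-/- replicate 1 was the highest, and the other 5 libraries were mixed. Its log2 estimate for Dlx5-/- over control was 0.14 (SE 0.15; 95% confidence interval -0.20 to 0.47; edgeR adjusted p = 0.760), and without Dlx5-/- replicate 1 it was -0.032. The log2 ratio of Ednra to Ednrb counts was -0.97, -0.39 and -0.31 in Dlx5-/- libraries, against -0.75, -0.97 and -0.45 in control libraries. Its mean differed by 0.17 (p = 0.6, exact two-sided permutation test with 3 libraries against 3; adjusted over 2 ratios, 0.8), a test whose smallest possible p is 0.1.

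Cells of the neural crest lineage that carry Ednrb were compared through their markers. Genes of Schwann cells and glial precursors summed to 244 to 333 CPM in Dlx5-/- and 248 to 340 CPM in control libraries, the median of their 8 log2 fold changes was 0.09, and 0 passed. Sox10, the regulator that these cells share with melanocytes, had a log2 fold change of 0.31 (adjusted p = 0.493, edgeR). Of 8 melanocyte genes, 4 were under the filter. Dct, an enzyme of melanin synthesis, had 51, 28 and 93 counts in Dlx5-/- libraries, against 20, 2 and 0 in control libraries, and was not called (log2 fold change 2.77; adjusted p = 0.238, edgeR). Tyr, the first enzyme of that pathway, was under the filter and was chosen after its values were seen. It had 8, 7 and 11 counts in Dlx5-/- libraries, against 0, 2 and 0 in control libraries. Of the others under the filter, Tyrp1 had 10 counts in all Dlx5-/- and 8 in all control libraries. Slc45a2 had 7 and 0, and Mlana 5 and 0. The melanocyte genes together summed to 48.9 to 52.4 CPM in Dlx5-/- and 47.6 to 54.2 CPM in control libraries, most of it from Kit, a receptor tyrosine kinase that other cells also express. Kit had the smallest p of the list and an estimate of the other sign. It measured 32.0, 37.4 and 32.4 CPM in Dlx5-/- libraries, against 38.9, 46.3 and 49.7 CPM in control libraries, lower in every Dlx5-/- library (log2 fold change -0.40; adjusted p = 0.184, edgeR). Their part in the Ednrb level was not tested.

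Ece1, which makes the last cut that frees the active peptide, was the member with the clearest difference. It measured 84.3, 93.1 and 78.6 CPM in Dlx5-/- libraries, against 107, 123 and 128 CPM in control libraries. Every Dlx5-/- library lay below every control library, as it did for 9.7% of all genes. The level in Dlx5-/- was 0.715 of that in control (95% confidence interval 0.610 to 0.837), a log2 fold change of -0.48 (SE 0.10). In edgeR it missed the threshold over all genes (adjusted p = 0.0851), where 1.84% of genes had an adjusted p under 0.1, and limma-trend, which called 0.598% of genes, gave 0.0706. DESeq2 called it (adjusted p = 0.00328), as it did 3.62% of the genes to which it gave an adjusted p. The edgeR test without a filter on low values also called it (adjusted p = 0.00863), with 2.27% of all genes called.

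The size of the Ece1 difference changed little with the processing, while its adjusted p ran from 0.00328 to 0.335 over 14 alternatives. With 1 library left out, the log2 fold change lay between -0.56 and -0.43 and was never called by edgeR, and without Dlx5-/- replicate 3 it was -0.43. Ece1 lies at chr4:137862237-137965229 on the plus strand (GRCm38). The overlapping gene on the other strand, Gm13012, had 3 counts in all Dlx5-/- and 5 in all control libraries, against 2618 and 3408 for Ece1. All 6 deposited values of Ece1 were whole within 0.001, as they were for Edn1, Edn3 and Mef2c, while 2 of 6 were for Ednra and 5 of 6 for Ednrb.

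Ece1 is strongly expressed in endothelium, and most endothelial markers had lower estimates in Dlx5-/- soft palates too. The 12 listed genes summed to 408 to 492 CPM in Dlx5-/- and 493 to 590 CPM in control libraries. Estimates were lower for 10 and higher for 2, at a median of -0.13 on the log2 scale, and 0 passed in edgeR. Without Dlx5-/- replicate 3, Emcn and Eng turned from -0.09 and -0.08 to 0.04 each. Cdh5, the cadherin of endothelial junctions, measured 128, 147 and 120 CPM in Dlx5-/- libraries, against 163, 166 and 201 CPM in control libraries (log2 fold change -0.42; adjusted p = 0.158, edgeR), and was the 1 gene of this list that DESeq2 called (adjusted p = 0.0213). Erg, an endothelial transcription factor, had an estimate of the other sign, 0.24. Neuron markers summed to 1702 to 2341 CPM in Dlx5-/- and 3479 to 4411 CPM in control libraries, without overlap. Their median log2 fold change was -0.80, with 9 of 10 estimates lower, and 0 passed in edgeR while DESeq2 called 7, all lower. These values include Dlx5-/- replicate 3, the library with brain markers. Without it, Snap25 turned from 0.37 to -0.85, and Syt1 went from -0.08 to -0.85. Both were then called (edgeR adjusted p = 0.0470 and 0.0290), as were Tubb3, Elavl3, Nefm, Nefl and Prph (0.0158 to 0.0378), all lower. Elavl4, Stmn2 and Isl1 did not pass, and 164 of 16218 genes were called in that fit. Epithelial markers summed to 220 to 228 CPM in Dlx5-/- libraries. In control replicates 1, 2 and 3 they summed to 256, 259 and 398 CPM, also without overlap. Most of that gap lay in 3 of the 10 genes, each highest in control replicate 3. There Krt17 and Krt14 measured 80.3 and 64.5 CPM, against at most 40.8 and 30.9 CPM in the other control libraries. Krt17, a keratin, averaged 15.6 ± 6.51 CPM in Dlx5-/- and 53.3 ± 23.3 CPM in control libraries (SD, n = 3 each), Krt14, a keratin of basal cells, 20.5 ± 1.81 CPM in Dlx5-/- and 40.6 ± 20.9 CPM in control libraries, and Cdh1, the epithelial cadherin, 41.2 ± 5.55 CPM in Dlx5-/- and 58.8 ± 7.97 CPM in control libraries. DESeq2 called these 3 as lower and edgeR called 0 of the 10, whose median log2 fold change was -0.16, with higher estimates for Trp63 (0.36) and Esrp1 (0.19). Without Dlx5-/- replicate 3, Trp63 turned to -0.18 and Esrp1 was at 0.06. Epcam and Krt18 turned the other way without it, from -0.07 and -0.08 to 0.03 each. The part of these cell types in the Ece1 difference was not tested.

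Mef2c, a factor of neural crest, muscle and vessels, was the member whose spread differed most between groups. It measured 105, 172 and 141 CPM in Dlx5-/- libraries, against 124, 127 and 124 CPM in control libraries. The SD was 33.6 CPM in Dlx5-/- and 1.70 CPM in control libraries (n = 3 each). Replicate 1 of Dlx5-/- lay below all control libraries and the other Dlx5-/- libraries above them. Its log2 estimate was 0.16 (SE 0.16; 95% confidence interval -0.20 to 0.52; edgeR adjusted p = 0.731). It was 0.33 without Dlx5-/- replicate 1, -0.029 without replicate 2, and 0.15 without replicate 3, the library with brain markers.

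Skeletal muscle, where Mef2c is a main regulator, varied between the Dlx5-/- libraries in the same order. The 12 muscle markers summed to 1293, 3573 and 2182 CPM in Dlx5-/- replicates 1, 2 and 3, against 1388, 1906 and 1097 CPM in control replicates 1, 2 and 3. All 12 estimates were higher in Dlx5-/-, at a median of 1.06 on the log2 scale, and 0 passed in edgeR. Myl1, a myosin light chain, came closest (log2 fold change 1.09; adjusted p = 0.0746, edgeR). Without Dlx5-/- replicate 3, edgeR called Myl1 (log2 fold change 1.16; adjusted p = 0.0470), as it did 164 of 16218 genes. DESeq2 called 4 of the 12, all higher in Dlx5-/-: Myl1 (adjusted p = 1.46e-05), Chrna1, Tnnt1 and Myog. It called 3.62% of the genes to which it gave an adjusted p. Mef2c and the muscle sum ranked the libraries alike within both groups, and so did Ece1 and the endothelial sum, Ednrb and the Schwann cell sum, and each ligand and the epithelial sum. These are 5 of the 54 possible pairs of a member and 1 of 9 marker lists, and they were picked after their values were seen. With 3 libraries a group such an order is a description, and the part of muscle content in the Mef2c level was not tested.

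**Figure D2:**
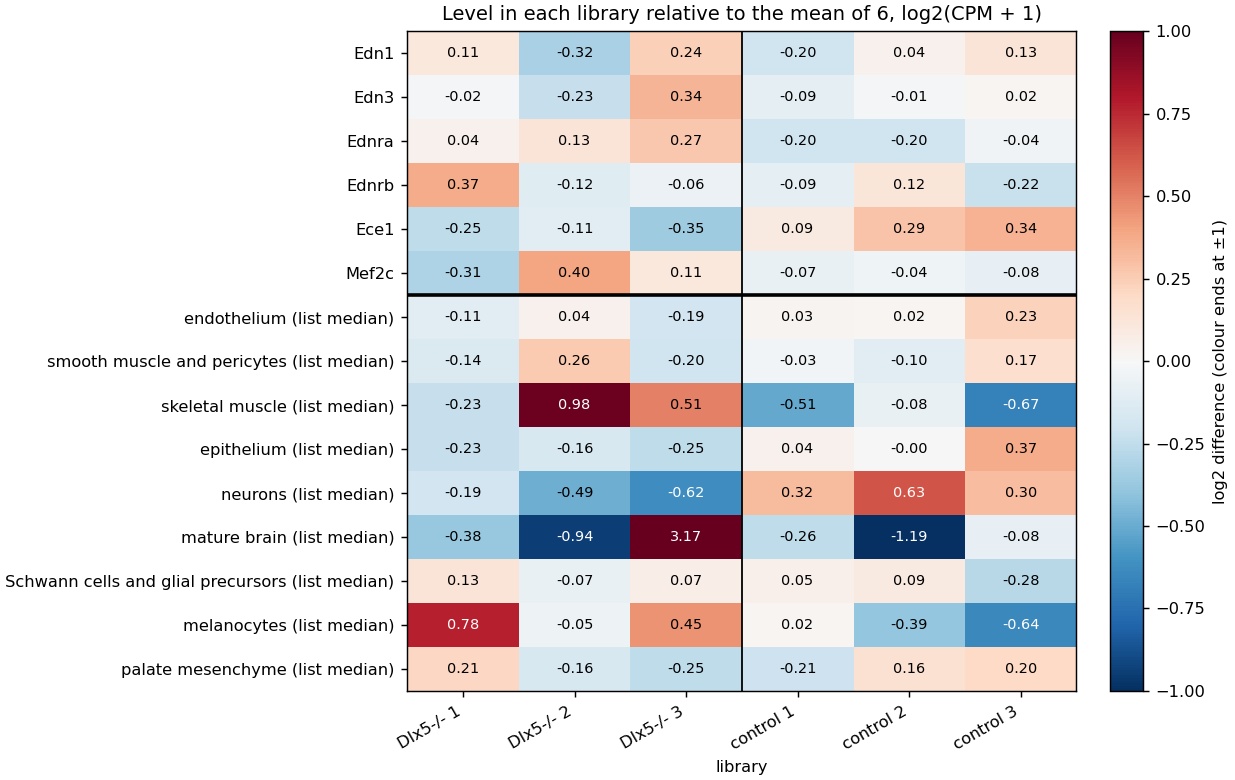
Each cell gives a library's log2(CPM + 1) minus the mean over the 6 libraries, for the 6 endothelin genes (above the line) and for the median gene of 9 marker lists (below it), with Dlx5-/- libraries left of control libraries. Ece1 is below 0 in all Dlx5-/- libraries, at -0.25, -0.11 and -0.35, and above 0 in all control libraries, and the skeletal muscle median is highest in Dlx5-/- replicate 2, at 0.98.

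Levels of different genes were compared per kilobase of exon, with all annotated exons of a gene merged. In Dlx5-/- soft palates Ednrb was at 18.1 ± 3.51 CPM per kilobase, Ece1 at 16.1 ± 1.38, Ednra at 9.51 ± 0.773, Mef2c at 8.88 ± 2.14, Edn3 at 4.02 ± 0.872 and Edn1 at 0.968 ± 0.278 (SD, n = 3). In control soft palates the order on this scale began with Ece1 at 22.5 ± 2.08, before Ednrb at 16.5 ± 1.99, Mef2c at 7.95 ± 0.108, Ednra at 7.73 ± 0.534, Edn3 at 3.81 ± 0.155 and Edn1 at 0.937 ± 0.164 (SD, n = 3). Ednrb and Ece1 overlapped in Dlx5-/- libraries but not in control libraries, where Ece1 was at least 20.2 and Ednrb at most 18.6. Ednra and Mef2c overlapped in both groups. The place of Mef2c depends on the length used: per kilobase of its longest coding transcript it was at 22.2 ± 5.35 in Dlx5-/- and 19.9 ± 0.271 in control libraries. On that scale too, Edn3 was the lowest but one and Edn1 the lowest in both groups.

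A list of 22 other genes of the pathway was read in the same test. Of these, 18 were tested, and 0 were called in either direction. Estimates were higher for 10 and lower for 8, and the median was 0.03 on the log2 scale, beside 0.01 over all genes. The groups did not overlap for 7 of the 18 (1 higher and 6 lower), where this held for 19.2% of all genes. The other ligand, Edn2, was under the filter, with 7 counts in all Dlx5-/- and 14 in all control libraries, as were Kel, Plcb2 and Mef2b.

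Mme, which encodes neprilysin, a protease that breaks down endothelins and other peptides, had the smallest p of this list. It measured 152, 147 and 138 CPM in Dlx5-/- libraries, against 115, 103 and 113 CPM in control libraries, with every Dlx5-/- library the higher. Its log2 fold change was 0.40 (SE 0.08; 95% confidence interval 0.22 to 0.59; edgeR adjusted p = 0.0804), and DESeq2 called it (adjusted p = 0.00440). Furin and Ece2, which cut endothelin precursors, overlapped between groups, with log2 fold changes of 0.02 and 0.20.

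Among genes that carry the signal inside the cell, those with the smallest p had lower estimates, and 0 passed. Plcb4, the phospholipase that acts after Ednra in the lower jaw, measured 25.5, 26.1 and 29.3 CPM in Dlx5-/- libraries, against 33.6, 33.4 and 35.3 CPM in control libraries (log2 fold change -0.33; adjusted p = 0.181, edgeR). Gnaq, the alpha subunit of a G protein that couples to both receptors, had a log2 fold change of -0.26 (adjusted p = 0.222, edgeR), while its close relative Gna11 was at 0.04. Gna13, a subunit of another G protein class, was at -0.19 (adjusted p = 0.336, edgeR). Hdac4, a histone deacetylase that holds Mef2 factors inactive, measured 74.3, 88.4 and 73.0 CPM in Dlx5-/- libraries, against 97.5, 106 and 91.5 CPM in control libraries (log2 fold change -0.33; adjusted p = 0.218, edgeR). Its relatives did not share 1 direction, with log2 fold changes of 0.21 for Hdac5, 0.07 for Hdac7 and -0.17 for Hdac9. Mef2a and Mef2d, relatives of Mef2c, overlapped between groups, with log2 fold changes of -0.04 and 0.12. Without Dlx5-/- replicate 3 the estimates of Mef2a, Mef2d and Hdac7 turned, to 0.01, -0.02 and -0.02.

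**Figure D3:**
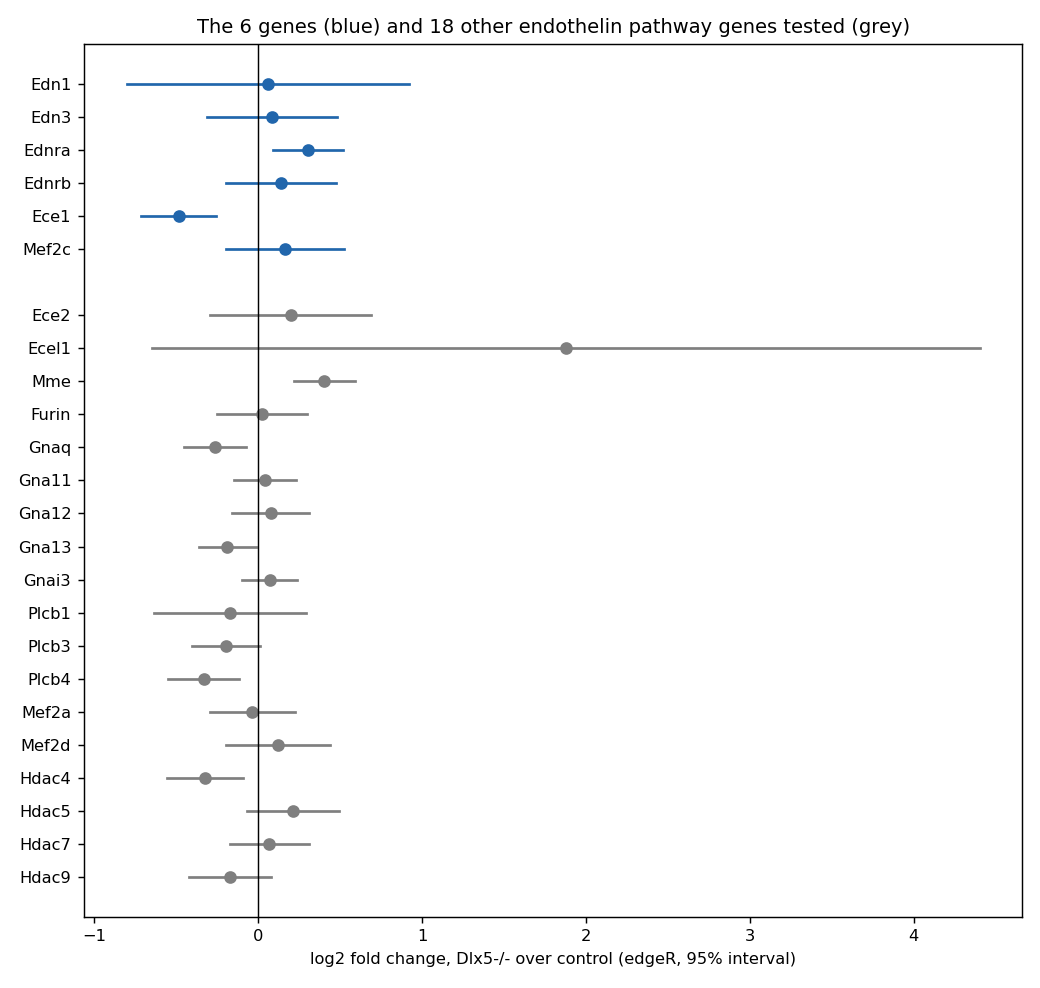
Log2 fold change of Dlx5-/- over control (horizontal axis) with its 95% confidence interval from edgeR, for the 6 endothelin genes in blue and the 18 other pathway genes tested in grey. The intervals of Ece1 (-0.71 to -0.26), Ednra (0.09 to 0.52) and Mme (0.22 to 0.59) leave out 0 before any adjustment, as do some of the lower pathway genes, and Ecel1 has the widest interval.

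Genes that need the Edn1 signal in the early arches were looked at beside the pathway. Of 8 listed, 6 were tested and Dlx5 alone was called, as the knocked-out gene. Gsc, a homeobox gene of the lower jaw, measured 9.21, 9.21 and 10.3 CPM in Dlx5-/- libraries, against 4.63, 6.48 and 6.88 CPM in control libraries (log2 fold change 0.68; adjusted p = 0.214, edgeR). Hand2, which acts after Edn1 and Dlx5 in the ventral arch, measured 3.31, 5.53 and 23.2 CPM in Dlx5-/- libraries, against 5.17, 5.18 and 6.31 CPM in control libraries, so that only Dlx5-/- replicate 3 lay above the control libraries (log2 fold change 0.98; adjusted p = 0.576, edgeR). With that library left out, edgeR gave Hand2 an estimate of -0.32 on the log2 scale and an adjusted p of 0.724. Dlx6 and Dlx3, relatives of Dlx5, had log2 fold changes of 0.74 and 0.36 and overlapped between groups. Hand1 and Dlx4 were under the filter, with 32 and 36 counts in all Dlx5-/- libraries, against 0 and 9 in all control libraries, and 31 of the 32 Hand1 counts were in Dlx5-/- replicate 3.

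Genes held back by Edn1 in the arches, or acting against it, were a further list of 6, of which 0 were called. Pou3f3, a transcription factor of the upper jaw that Edn1 signalling keeps low, measured 64.7, 61.6 and 66.9 CPM in Dlx5-/- libraries, against 46.5, 19.99 and 24.1 CPM in control libraries. Every Dlx5-/- library was higher, and the log2 fold change of 1.10 (SE 0.27) did not pass in edgeR (adjusted p = 0.133), while DESeq2 called it (adjusted p = 0.00102). Nr2f1, a nuclear receptor of the same upper jaw domain, had a log2 fold change of 0.37 (adjusted p = 0.310, edgeR), and its relative Nr2f2 of -0.11. The Notch target Hes1 was at -0.10.

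The genes most like each member over the 6 libraries were found by the root mean square difference of their centred log2(CPM + 1), among 11530 genes with a mean of at least 5 CPM. For Ece1, whose own values lay 0.26 around their mean on this measure, they were Ogfrl1 (0.04), Kit (0.06) and Taok3 (0.06). Nearest to Ednra, which itself varied by 0.17, were Gria3 (0.03), Jade2 (0.04) and Rps4l (0.04). Nearest to Ednrb were Otub2 and Helq, nearest to Mef2c were Crebzf, Ehd4 and Col6a1, nearest to Edn3 were Ppm1k, Cadm4 and Nubp1, and nearest to Edn1 were Zscan21, Sh3gl3 and Rarb. Over 6 libraries and this many genes close matches are many, and a match is a description of these libraries.

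**Figure D4:**
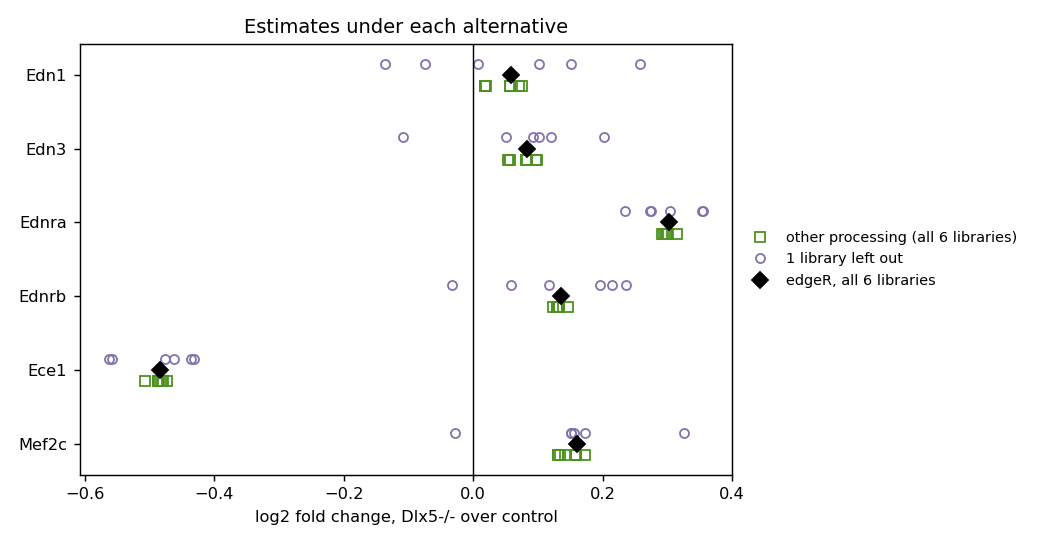
Log2 fold change of Dlx5-/- over control for each endothelin gene (horizontal axis): edgeR with all 6 libraries (black diamonds), other processing of all 6 (green squares) and edgeR with 1 library left out (purple circles). Ece1 lies between -0.56 and -0.43 and Ednra between 0.23 and 0.35, while the other 4 genes fall on both sides of 0 when a library is left out.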

How the data were processed

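Per the labels' protocols, RNA from the posterior palate was purified on RNeasy columns and made into libraries with an Illumina TruSeq mRNA kit. STAR 2.4.1d, Partek and the build mm10 appear in the submitters' processing notes. The annotation, the way reads were counted and the use of strand: not given in the sources used here. The deposited table holds estimated counts, although it calls itself normalized: column totals differ, and 64.5% of values above 0.5 were whole within 0.001. The table has 1 more column, with no match among the labelled samples, which was left out. Replicates of a group differed by more than sampling noise (chi-square per degree of freedom at least 6.37).

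Counts were rounded, filtered at a mean of 1 CPM, and tested with edgeR 4.0.16 (R 4.3.3; quasi-likelihood, TMM, Benjamini-Hochberg over 16218 genes). SE and intervals come from the F statistic. Alternatives were DESeq2 1.42.0, limma-trend (limma 3.58.1), other scalings and filters, a replicate block and leaving out each library. Alternatives for Dlx5 and the pathway list median were added after seeing the data. The test was tried on simulated counts. Ratios used exact permutation (scipy 1.17.1). Lengths and sequences came from GENCODE M21 on GRCm38. Members and lists were chosen with earlier results of these data known. From each list the 5 genes (marker lists: 3) with the smallest p could be named, and others are given for contrast. Nearest genes left out predicted genes. Some genes that these rules select are left out of the text.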

Additional observations from a re-analysis of the deposited data

How the results depend on the processing

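Over all genes, edgeR called 1 gene, and the replicate block called 0, library totals without TMM 41, a filter of 5 CPM 74, limma-trend 97 with a pseudocount of 1 and 96 with 0.5, DESeq2 506, and edgeR without a filter 679. With 1 library left out the count ran from 0 to 164, the highest without Dlx5-/- replicate 3. Of the 6 endothelin genes, 1 (Ece1) was called by DESeq2 and 1 without a filter, as was 1 of the other pathway genes in each; elsewhere, and with any library left out, 0 were called. Leaving out a library turned Edn1 (-0.14 without Dlx5-/- replicate 3 and -0.07 without control replicate 1, up to 0.26), Edn3 (-0.11 without Dlx5-/- replicate 3, up to 0.20), Ednrb (-0.032 without Dlx5-/- replicate 1, up to 0.24), Mef2c (-0.029 without Dlx5-/- replicate 2, up to 0.33), and Hand2 (-0.32 without Dlx5-/- replicate 3, up to 1.39; settings for Hand2 were added after seeing the data). The difference in the log2 ratio of Edn1 to Edn3 ran from -0.15 to 0.060 with 1 library left out (above 0 without Dlx5-/- replicate 2 or control replicate 3), and that of Ednra to Ednrb from 0.043 to 0.37. Ece1 and Ednra kept their sign under all 14 alternatives. Dlx5 was not called with the replicate block (adjusted p = 0.0620, edgeR) or without Dlx5-/- replicate 1 (0.0949), Dlx5-/- replicate 2 (0.0631) or control replicate 3 (0.107), in a range of 1.70e-22 to 0.107. The causes were not tested. Numbers shared between groups are not said to pair the libraries, and the correlations of their deviations were -0.01, -0.01 and 0.02. With 3 libraries a group, such values cannot show whether libraries of the same number were paired. Edn1 could not be fitted under the filter of 5 CPM, and its 13 to 34 counts a library limit its precision.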
